A study of Homo sapiens with 18 samples.

Results

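UPF1 siRNA and RCOR1 siRNA were compared directly in LNCaP cells, a human prostate cancer line that responds to androgen, under R1881, a synthetic androgen. The comparison used 6 of the 18 libraries of the study, 3 with UPF1 siRNA and R1881 and 3 with RCOR1 siRNA and R1881, and no library with control siRNA. Of 60649 genes in the count table, 14090 passed a filter on low counts and were all tested. Every group received 1 pool of siRNAs (siGenome SmartPool) per target and was moved to medium without androgen on the day after transfection. R1881 at 5 nM was added 48 h after transfection and the harvest followed 48 h later. Further groups used below were UPF1 siRNA with vehicle (ethanol), RCOR1 siRNA with vehicle, and non-targeting control siRNA with R1881, with 3 libraries each, described as biological triplicates. With 1 pool per gene, the loss of a target and other effects of its siRNAs cannot be told apart. The question addressed is where the loss of UPF1 and the loss of RCOR1 leave androgen-treated cells in different states, without a control group shared between them.

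UPF1, an RNA helicase, is the central factor of nonsense-mediated decay (NMD). This pathway degrades transcripts on which translation stops upstream of an exon junction or ahead of a long 3′ end, and its own factors and several stress transcripts are known targets. RCOR1 (CoREST) is a scaffold that joins the histone demethylase KDM1A to the deacetylases HDAC1 and HDAC2, and the repressor REST recruits this complex to neuronal genes. Androgens such as R1881 induce luminal genes in LNCaP cells, the kallikreins among them.

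The libraries were made from total RNA after removal of ribosomal RNA, so that RNA without a poly(A) tail could enter the counts. Totals over the 18 libraries lay between 10299607 and 17338235 counts, and in R1881 they ran from 12499252 to 17338235 counts for UPF1 siRNA, against 12181389 to 13744437 counts for RCOR1 siRNA. Levels are given as CPM, counts relative to the library total with TMM scaling, and differences are log2 fold changes of UPF1 siRNA over RCOR1 siRNA ± standard error (SE). Calls required an adjusted p below 0.05 in edgeR's quasi-likelihood test, with Benjamini-Hochberg adjustment over all 14090 genes. The 10 LNCaP markers checked, among them KLK2, KLK3, TMPRSS2 and KRT18, were present in all 6 libraries, with the lowest value at 251 CPM. Of 20 markers of other cell types, 9 had 0 counts in all 6 libraries (among them CD3E, CDH5, DCN, DES, GFAP, HBB, KRT5 and TP63). Summed over the 20, the level was 31.8 to 38.4 CPM in the UPF1 arm and 31.3 to 36.3 CPM in the RCOR1 arm.

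Each target was low in its own arm. UPF1 (chromosome 19, 18831938 to 18868236, GRCh38) had 25.8, 25.4 and 24.6 CPM with UPF1 siRNA, against 123, 109.5 and 105 CPM with RCOR1 siRNA. Every UPF1 siRNA library lay far below every RCOR1 siRNA library, with a difference of -2.16 ± 0.086 on the log2 scale (edgeR adjusted p = 6.2e-05). RCOR1 (chromosome 14, 102592661 to 102730576) had 87.1, 86.5 and 82.5 CPM with UPF1 siRNA, against 12.4, 11.8 and 12 CPM with RCOR1 siRNA, a difference of 2.82 ± 0.076 on the log2 scale (edgeR adjusted p = 3.3e-05). UPF1 thus stood at 22.4% of its level in the other arm and RCOR1 at 14.1%. Against the control siRNA libraries, UPF1 was at a log2 fold change of -2.5 with UPF1 siRNA and at -0.33 with RCOR1 siRNA, and RCOR1 was at 0.17 and -2.64 in the same order.

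In all, 5901 of 14090 genes were called, 41.9% of those tested. With UPF1 siRNA, 3224 genes (22.9%) were higher and 2677 (19%) were lower, and the median over all genes was near 0. At least 2-fold differences among the calls were less even, with 473 genes higher and 976 lower. The libraries of the 2 groups did not overlap in 4133 genes (29.3%) that lay higher with UPF1 siRNA and in 3334 (23.7%) that lay lower. Such separation, given below for single genes, was thus common. Of the 11835 protein-coding genes tested, 2969 were higher and 2365 lower, while of 552 lincRNAs 66 were higher and 85 lower. These are bulk libraries, in which fewer cells of a type and less RNA per cell cannot be told apart. The count was 3658 without UPF1 siRNA replicate 2. Replicates 1 and 2 of that arm stood apart from the others in the composition of transcripts, as described below; without both, the count was 2174 (1063 higher, 7.18%, and 1111 lower, 7.5%).

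**Figure D1:**
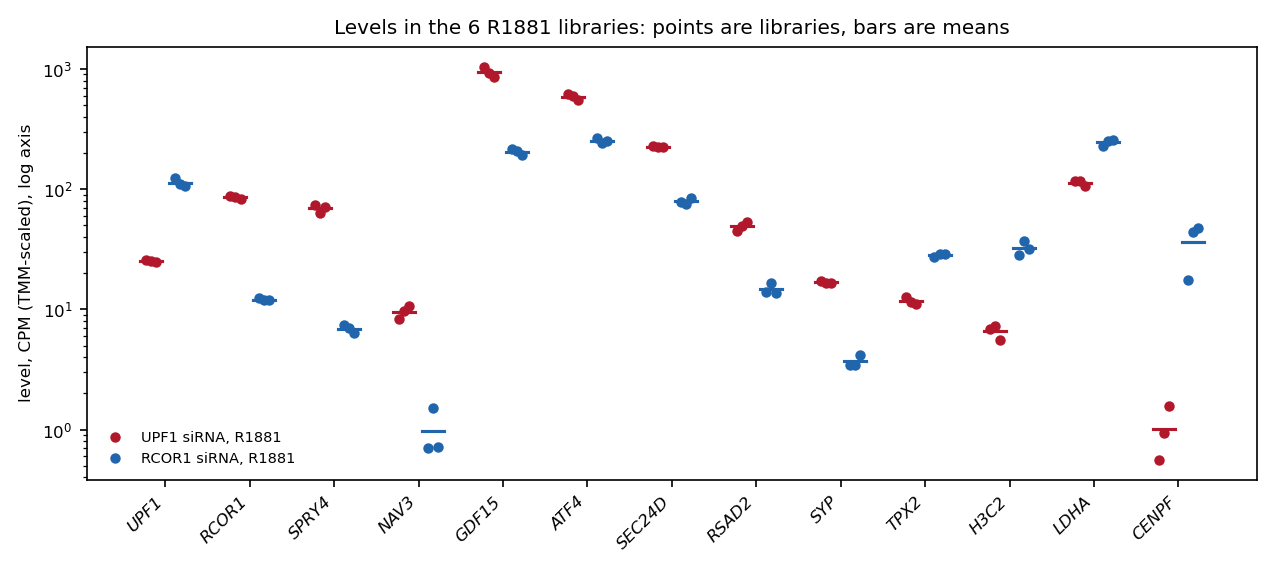
Levels of 13 genes in CPM on a log axis in the 3 libraries with UPF1 siRNA and R1881 (left of each pair) and the 3 with RCOR1 siRNA and R1881 (right); points are libraries and bars are means. The libraries of the 2 groups do not overlap for any of these genes, which for SPRY4, NAV3 and CENPF was a condition of their choice. SPRY4, NAV3, GDF15, ATF4, SEC24D, RSAD2 and SYP lay higher with UPF1 siRNA, and TPX2, H3C2, LDHA and CENPF lay lower.

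The 15 genes with the steepest differences on the higher side were nearly all called in vehicle too. SPRY4 (chromosome 5, 142310427 to 142326455), a feedback inhibitor of receptor tyrosine kinase signalling, had 73.4, 63.4 and 71.1 CPM with UPF1 siRNA, against 7.42, 6.94 and 6.3 CPM with RCOR1 siRNA. The lowest UPF1 siRNA library was thus over 8 times the highest RCOR1 siRNA library, and the log2 fold change was 3.33 ± 0.11 (edgeR adjusted p = 4.9e-05). Against the shared control siRNA libraries SPRY4 stood at 1.77 with UPF1 siRNA (edgeR adjusted p = 0.00021) and at -1.54 with RCOR1 siRNA (edgeR adjusted p = 0.0029), so that it differed from control in opposite directions. DDC, which makes dopamine and serotonin from their amino acid precursors, had 25.5, 29 and 29.4 CPM with UPF1 siRNA, against 2.69, 3.81 and 3.94 CPM with RCOR1 siRNA. It too stood on both sides of control, at 1.81 with UPF1 siRNA and at -1.18 with RCOR1 siRNA, as did ADAM7, a metalloprotease-family gene of the male tract (2.53 and -1.51), and TYRP1, an enzyme of melanin synthesis (1.1 and -1.92).

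Several other steep differences lay mostly on the UPF1 side of control. NAV3 (chromosome 12, 77324641 to 78213008), a neuron navigator protein that binds microtubules, had 8.32, 9.68 and 10.7 CPM with UPF1 siRNA, against 0.707, 1.52 and 0.709 CPM with RCOR1 siRNA, and stood at 2.88 with UPF1 siRNA and at -0.4 with RCOR1 siRNA against control. KRT2, an epidermal keratin, differed by 2.89 ± 0.21 in the direct comparison and stood at 2.88 with UPF1 siRNA and close to 0 with RCOR1 siRNA against control. The secreted lectin REG4 differed by 3.87, the FGF coreceptor klotho (KL) by 2.35, the neuronal guidance glycoprotein RELN by 2.28 and the long noncoding RNA LINC01133 by 2.43. Larger falls on the RCOR1 side than gains on the UPF1 side were measured for RDH12, a retinol dehydrogenase (0.84 and -1.53), and for the clone-named transcript RP11-472B18.3 (0.73 and -1.78). The tetraspan protein gene LHFPL2 (2.32) and the noncoding gene RP11-244H18.1 (2.33) completed the 15 highest together with RCOR1 itself. Against control, LHFPL2 stood on both sides, at 1.31 with UPF1 siRNA and at -1 with RCOR1 siRNA. In the same order RP11-244H18.1 stood at 1.47 and -0.84, and REG4 at 2.96 and -0.89. All 15 kept their call without UPF1 siRNA replicates 1 and 2, at log2 fold changes of 1.94 to 4.41. In vehicle, 13 of the 14 that could be tested were called higher, at 0.83 to 3.71, and RP11-472B18.3 was the one not called.

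Most stress genes under the control of ATF4 were higher with UPF1 siRNA. ATF4 is the transcription factor of the integrated stress response, which is translated when initiation factor eIF2 is phosphorylated and switches on amino acid supply genes. Of 38 tested genes on a list of this response, 29 were higher (76.3%, beside 22.9% of all genes), none was lower and 9 were not called, with a median log2 fold change of 0.69 beside -0.00015 over all genes. GDF15, a stress-induced cytokine, had 1044, 928 and 849.7 CPM with UPF1 siRNA, against 215, 209 and 191 CPM with RCOR1 siRNA. ATF4 (chromosome 22, 39519695 to 39522685) had 616, 591 and 546 CPM with UPF1 siRNA, against 264, 241 and 252 CPM with RCOR1 siRNA. In both genes the lowest UPF1 siRNA library lay above 2 times the highest RCOR1 siRNA library, with log2 fold changes of 2.2 ± 0.094 (edgeR adjusted p = 6.3e-05) and 1.21 ± 0.069 (edgeR adjusted p = 0.00014).

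Further members of the response covered amino acid synthesis and tRNA charging. The proapoptotic factor DDIT3 (CHOP) differed by 1.44 ± 0.096, the serine synthesis enzyme PSAT1 by 1.1 ± 0.074 and the glycyl-tRNA synthetase GARS1 by 0.76 ± 0.053. Against control, GDF15 stood at 0.69 with UPF1 siRNA and at -1.5 with RCOR1 siRNA, and ATF4 at 0.9 and -0.3. Among the members not called were the cystine transporter SLC7A11 (-0.14) and the glutamyl-prolyl-tRNA synthetase EPRS1 (-0.45), and the canonical targets ASNS (0.62 ± 0.18) and TRIB3 (0.53 ± 0.098) were called at smaller differences, though neither without UPF1 siRNA replicates 1 and 2 (0.43 and 0.29); leaving out any one of UPF1 siRNA replicates 1 and 2 and RCOR1 siRNA replicates 2 and 3 also ended the call of ASNS. These 4 were chosen after their values were seen. In vehicle 25 of 39 members were higher and none lower (median 0.5, beside 14.9% of all genes higher in vehicle). Without UPF1 siRNA replicates 1 and 2, 21 were higher and none lower.

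ATF4 binds composite elements with the core TGATGNAA. In 300-base promoter windows of RefSeq (GRCh38.p14, 250 bases before to 50 after the gene start), this core was present on either strand in 8 of the 33 ATF4 list members that had a window (24.2%), against 3.67% of all 27305 windows and 1.57% of the 10174 windows of tested genes. All 8 were among the 26 members that were higher, and 0 of the other 7 held it. A match describes the sequence only and does not show binding. The windows of 2 higher members are given with the matches in capitals because they show the element beside the start of genes that moved: ATF3 is a stress-induced transcription factor, and CHAC1 degrades glutathione. ATF3 lies on the plus strand at chr1:212565157-212565456 and CHAC1 on the plus strand at chr15:40953221-40953520, where the match is on the minus strand.
ATF3: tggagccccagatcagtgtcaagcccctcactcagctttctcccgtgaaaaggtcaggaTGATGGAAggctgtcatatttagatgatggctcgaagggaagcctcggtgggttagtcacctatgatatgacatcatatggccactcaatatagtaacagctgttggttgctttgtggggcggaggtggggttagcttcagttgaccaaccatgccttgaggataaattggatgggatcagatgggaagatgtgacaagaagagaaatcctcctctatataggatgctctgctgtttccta
CHAC1: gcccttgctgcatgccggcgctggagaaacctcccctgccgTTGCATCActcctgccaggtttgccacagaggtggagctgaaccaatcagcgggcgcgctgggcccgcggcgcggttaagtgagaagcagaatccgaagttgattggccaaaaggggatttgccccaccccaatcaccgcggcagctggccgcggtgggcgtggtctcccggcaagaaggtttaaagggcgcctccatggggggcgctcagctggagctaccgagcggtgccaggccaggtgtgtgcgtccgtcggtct
ATF3 had 76.7, 71.5 and 68.3 CPM with UPF1 siRNA, against 41.6, 42.1 and 40.2 CPM with RCOR1 siRNA, with a difference of 0.8 ± 0.076 on the log2 scale (edgeR adjusted p = 0.0005). CHAC1 had 34, 33 and 28.6 CPM with UPF1 siRNA, against 16.9, 15.9 and 15.4 CPM with RCOR1 siRNA, with a difference of 0.99 ± 0.1 on the log2 scale (edgeR adjusted p = 0.00061). The 2 groups did not overlap in either gene.

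Most genes of the endoplasmic reticulum (ER) list were higher as well. Of 35 tested chaperone and secretory genes, 28 were higher (80%, beside 22.9% of all genes) and 2 were lower (5.71%, beside 19%). Their median was 0.67. SEC24D, a cargo-binding coat protein of vesicles that leave the ER, had 227, 223 and 225 CPM with UPF1 siRNA, against 77.9, 75.4 and 84 CPM with RCOR1 siRNA, a difference of 1.51 ± 0.067 on the log2 scale (edgeR adjusted p = 6.6e-05). The disulfide isomerase AGR2 had 64.8, 55.2 and 69.4 CPM with UPF1 siRNA, against 15.8, 16.9 and 15 CPM with RCOR1 siRNA, a log2 fold change of 1.99 ± 0.11. Both genes were separated in every library, and AGR2 stood at 0.63 with UPF1 siRNA and at -1.34 with RCOR1 siRNA against control. The isomerase PDIA4 (0.97), the neurotrophic ER factor MANF (1.06) and the stress sensor ERN1 (0.88) were higher. The lectin chaperone CANX (-1.01 ± 0.084) and SEL1L, the adaptor of ER-associated degradation (-1.07 ± 0.23), were lower; SEL1L was not called without UPF1 siRNA replicates 1 and 2 (edgeR adjusted p = 0.073). In vehicle 24 members were higher (68.6%, beside 14.9% of all genes there) and 2 lower (5.71%, beside 15.4%), with a median of 0.43.

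Oxidative stress genes controlled by NRF2 were higher in 12 of 17 cases (70.6%, beside 22.9% of all genes). Their median was 0.42, and 0.31 without UPF1 siRNA replicates 1 and 2. OSGIN1, an oxidative stress growth inhibitor, differed by 2.25 ± 0.17, the quinone reductase NQO1 by 0.87 ± 0.086, the pentose phosphate enzyme PGD by 0.84 ± 0.074, the autophagy receptor SQSTM1 by 0.76 ± 0.07 and the thioredoxin reductase TXNRD1 by 0.5 ± 0.055. For NQO1 the difference lay on the RCOR1 side, with -0.29 with UPF1 siRNA and -1.14 with RCOR1 siRNA against control. Heme oxygenase HMOX1 was the exception at -1.02 ± 0.27 (edgeR adjusted p = 0.023), and was not called without UPF1 siRNA replicate 2 (-0.86) or without RCOR1 siRNA replicate 1 (-0.87) or 2 (-0.98). The p53 list stood near the shares of all genes, with 8 of 29 members higher (27.6%, beside 22.9% of all genes), among them the apoptosis effector PERP (0.8) and the AKT inhibitor PHLDA3 (0.9), and 6 lower (20.7%, beside 19%), among them the kinase PLK2 (-0.57), the stress sestrin SESN1 (-0.53) and the ribonucleotide reductase subunit RRM2B (-2.13); without UPF1 siRNA replicates 1 and 2, 3 were higher and 1 was lower.

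Antiviral genes were more often higher than lower with UPF1 siRNA. Interferon-stimulated genes (ISGs) are switched on by interferon signalling and encode proteins that block viral RNA and assembly. Of 42 tested, 22 were higher (52.4%, beside 22.9% of all genes), 1 was lower (2.38%, beside 19%) and 19 were not called. Their median was 0.55. RSAD2 (viperin), which makes a chain-terminating nucleotide, had 45, 49 and 53.5 CPM with UPF1 siRNA, against 14.1, 16.5 and 13.6 CPM with RCOR1 siRNA, a difference of 1.74 ± 0.11 on the log2 scale (edgeR adjusted p = 0.00021). OAS2, a sensor of double-stranded RNA, had 20.1, 18.2 and 21.3 CPM with UPF1 siRNA, against 6.01, 6.77 and 5.2 CPM with RCOR1 siRNA, a log2 fold change of 1.73 ± 0.13. No library of one group reached the level of the other in these genes, a separation found on the higher side in 29.3% of all genes. The sensor-like protein OASL differed by 1.7 ± 0.12, OAS3 by 0.85 ± 0.08 and the transcription factor IRF1 by 1.44 ± 0.14.

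For RSAD2 and OASL the difference lay on the UPF1 side of control. RSAD2 stood at 1.82 with UPF1 siRNA (edgeR adjusted p = 2.4e-05) and at 0.1 with RCOR1 siRNA (edgeR adjusted p = 0.65) against control, and OASL at 1.72 and 0.04. MX1, which traps viral nucleocapsids, was at -0.01 ± 0.15 and was not called (edgeR adjusted p = 0.95). The one lower member was SAMD9, an antiviral factor with an adenine-rich transcript (36.3% adenine), at -3.13 ± 0.48. In vehicle 31 of 42 members were higher (73.8%, beside 14.9% of all genes there) and none lower, with a median of 0.82. Without UPF1 siRNA replicates 1 and 2, 17 of 44 were higher and SAMD9 was lower.

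ISG promoters carry interferon-stimulated response elements, searched on both strands as GAAA, any 2 bases and GAAA. Of the 35 ISG list members with a RefSeq window, 23 held it (65.7%), against 3.65% of all windows and 2.65% of those of tested genes. By call, 10 of the 16 higher members and 13 of the other 19 held the element. The windows of 2 higher members show it 2 times each, in capitals, with the pair overlapping in BST2. OAS3 lies on the plus strand at chr12:112938224-112938523 and BST2, which tethers budding virus to the cell, on the minus strand at chr19:17405581-17405880.
OAS3: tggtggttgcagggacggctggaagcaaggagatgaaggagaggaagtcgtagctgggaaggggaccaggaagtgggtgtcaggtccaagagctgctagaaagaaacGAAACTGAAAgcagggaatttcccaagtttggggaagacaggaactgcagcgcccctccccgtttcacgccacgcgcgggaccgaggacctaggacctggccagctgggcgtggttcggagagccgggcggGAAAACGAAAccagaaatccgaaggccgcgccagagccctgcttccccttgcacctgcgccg
BST2: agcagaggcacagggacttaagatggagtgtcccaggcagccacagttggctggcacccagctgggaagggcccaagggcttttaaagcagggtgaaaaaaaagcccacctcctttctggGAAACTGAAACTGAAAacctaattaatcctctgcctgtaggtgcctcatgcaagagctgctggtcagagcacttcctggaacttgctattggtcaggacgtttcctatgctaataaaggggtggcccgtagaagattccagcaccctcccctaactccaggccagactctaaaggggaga
OAS3 had 74.9, 76.8 and 76 CPM with UPF1 siRNA, against 44.5, 43.5 and 38.7 CPM with RCOR1 siRNA. BST2, chosen after its values were seen, had 12.3, 12 and 9.67 CPM with UPF1 siRNA, against 3.18, 2.71 and 1.58 CPM with RCOR1 siRNA, a difference of 2.18 ± 0.24 on the log2 scale (edgeR adjusted p = 0.0008). All 3 UPF1 siRNA libraries lay above all 3 RCOR1 siRNA libraries in both genes.

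Neighbouring immune groups followed in part. Of 5 tested ligands of the natural killer receptor NKG2D, 3 were higher (60%, beside 22.9% of all genes). They were RAET1L (1.57 ± 0.18), ULBP3 (1.05 ± 0.12) and ULBP1 (0.98 ± 0.12), while MICA was at -0.01 and not called. Of 16 class I antigen presentation genes, 6 were higher (37.5%, beside 22.9% of all genes), among them the immunoproteasome subunit PSMB9 (1.38 ± 0.25), the trimming peptidase ERAP1 (0.76 ± 0.089) and the peptide editor TAPBP (0.8 ± 0.15). B2M, the shared light chain, was at 0.14 ± 0.056 and not called (edgeR adjusted p = 0.09). Without UPF1 siRNA replicates 1 and 2 the class I median was 0.36, beside 0.49 with all libraries. The class I heavy chain HLA-B was called lower, with 0.112, 0 and 0 CPM with UPF1 siRNA, against 5.58, 5.33 and 3.47 CPM with RCOR1 siRNA, but in vehicle it had 8.06, 5.25 and 0 CPM with UPF1 siRNA, against 0.0676, 1.65 and 0 CPM with RCOR1 siRNA, so that libraries of one group ranged from 0 to over 8 CPM. NF-kappaB genes were higher in 10 of 20 cases (50%, beside 22.9% of all genes) and lower in none (median 0.43), among them the inhibitor NFKBIB at 1.45 ± 0.18 and the chemokine CXCL8 at 1.5 ± 0.22. Without UPF1 siRNA replicates 1 and 2, 6 were higher. The chemokine CCL20 had 1.95, 2.02 and 2.46 CPM with UPF1 siRNA, against 0.141, 0.0846 and 0.236 CPM with RCOR1 siRNA (edgeR adjusted p = 0.00049).

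Neuronal genes that REST represses were mostly higher with UPF1 siRNA, the arm in which RCOR1 was not targeted. Of 29 tested out of 64 listed, 18 were higher (62.1%, beside 22.9% of all genes) and 2 lower (6.9%, beside 19%). Their median was 0.64. The synaptic vesicle protein SYP had 17.1, 16.7 and 16.6 CPM with UPF1 siRNA, against 3.46, 3.47 and 4.18 CPM with RCOR1 siRNA, a difference of 2.18 ± 0.12 on the log2 scale (edgeR adjusted p = 0.00013). DISP2 differed by 1.38 ± 0.14 and the cadherin CELSR3 by 1.19 ± 0.11. Against control these 3 genes stood at 1.99, 1.36 and 1.23 with UPF1 siRNA and at -0.17, close to 0 and 0.05 with RCOR1 siRNA. The microtubule regulator STMN3 (1.5 ± 0.15) and the vesicle release factor CPLX1 (1.19 ± 0.14) instead stood lower with RCOR1 siRNA, at -0.84 and -0.84, beside 0.65 and 0.34 with UPF1 siRNA. The tubulin TUBB4A (-1.11 ± 0.24) and the kinase activator CDK5R1 (-0.41 ± 0.085) were lower, CDK5R1 not without UPF1 siRNA replicates 1 and 2 (-0.44, not called). In vehicle 13 of 30 were higher (43.3%, beside 14.9% of all genes there) and 4 lower (13.3%, beside 15.4%). Without UPF1 siRNA replicates 1 and 2 the median in R1881 was 0.46.

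Partners of RCOR1 were more often lower with UPF1 siRNA. Apart from RCOR1 itself, 19 members and partners of the CoREST complex were tested. Of these, 4 were higher (21.1%, beside 22.9% of all genes) and 10 lower (52.6%, beside 19%), with a median of -0.44. After correction for GC content 8 were lower with a median of -0.2, and after correction for GC content and length 7 were lower with a median of -0.11. The demethylase KDM1A had 49.7, 45.6 and 47.5 CPM with UPF1 siRNA, against 64.3, 65.2 and 64.5 CPM with RCOR1 siRNA, a difference of -0.44 ± 0.07 on the log2 scale (edgeR adjusted p = 0.0031). The deacetylase HDAC1 went the other way, at 0.52 ± 0.069, while its paralog HDAC2 was lower at -0.67 ± 0.15 and turned to 0.23 after a correction for GC content and length; neither deacetylase was called without UPF1 siRNA replicates 1 and 2 (0.39 and -0.48). REST had 61, 66.2 and 108 CPM with UPF1 siRNA, against 118, 185 and 185 CPM with RCOR1 siRNA and was lower, at -1.06 ± 0.26, with libraries of each group spread over about a factor of 1.5 or more; without UPF1 siRNA replicates 1 and 2 it was not called (edgeR adjusted p = 0.13), nor without RCOR1 siRNA replicate 2 (-0.96) or 3 (-0.95). Of the paralogs of RCOR1, RCOR3 was lower at -0.44 ± 0.13 (edgeR adjusted p = 0.035) and turned to 0.16 after correction for GC content and 0.17 for GC content and length, with calls lost without either of UPF1 siRNA replicates 1 and 2 or RCOR1 siRNA replicates 2 and 3, and RCOR2 was not called (edgeR adjusted p = 0.14). Without UPF1 siRNA replicates 1 and 2, none of the complex was higher and 3 of 20 were lower.

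The decay machinery and its known targets moved unevenly. Of 18 NMD and exon junction factors other than UPF1, 5 were higher (27.8%, beside 22.9% of all genes) and 1 was lower (5.56%, beside 19%), with a median of 0.11. SMG9, which regulates the kinase of UPF1, had 23.9, 22.7 and 22.4 CPM with UPF1 siRNA, against 11.1, 10.2 and 9.93 CPM with RCOR1 siRNA, a difference of 1.14 ± 0.092 on the log2 scale (edgeR adjusted p = 0.00034). SMG5, which acts on phosphorylated UPF1, had 305, 276 and 259 CPM with UPF1 siRNA, against 174, 152 and 143 CPM with RCOR1 siRNA, a difference of 0.84 ± 0.097 on the log2 scale (edgeR adjusted p = 0.00098). Both were separated in all libraries, and UPF3A (0.72), the endonuclease SMG6 (0.61) and the helicase DHX34 (0.47, edgeR adjusted p = 0.039) were also higher. DHX34 was not called with DESeq2 (0.45) or after correction for GC content (0.32), and without UPF1 siRNA replicates 1 and 2 it was at 0.15 (edgeR adjusted p = 0.64); leaving out either of these, or RCOR1 siRNA replicate 2 or 3, also ended the call. SMG8, the partner of SMG9 in the kinase complex, was lower with 28.1, 27.8 and 25.8 CPM with UPF1 siRNA, against 48.8, 45.9 and 46.8 CPM with RCOR1 siRNA (-0.79 ± 0.077, edgeR adjusted p = 0.00054). UPF3B (0.08 ± 0.34), UPF2 (-0.57 ± 0.4) and the kinase SMG1 (0.29 ± 0.37) were not called in R1881, where replicate 3 with UPF1 siRNA lay above 2 times replicates 1 and 2. For SMG1 the values were 187, 202 and 474 CPM with UPF1 siRNA, against 179, 272 and 254 CPM with RCOR1 siRNA. In vehicle these 3 were called higher, at 0.87, 1.07 and 1.25. In all, 8 of the 18 factors were higher in vehicle (44.4%, beside 14.9% of all genes there) and 2 lower (11.1%, beside 15.4%).

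Of 52 NMD targets, 17 were higher (32.7%, beside 22.9% of all genes) and 14 lower (26.9%, beside 19%), with a median of -0.06 (0.12 after correction for GC content). Higher targets included ATF4, DDIT3, ATF3 and ERN1, which are also stress genes, and the acetyltransferase NAT9 (0.87 ± 0.087). Lower targets included the snoRNA host genes SNHG16 (114, 112 and 110.3 CPM with UPF1 siRNA, against 211, 198 and 203 CPM with RCOR1 siRNA) and SNHG1 (-0.77 ± 0.071), and the ribosomal protein genes RPL10A (-0.57) and RPL3 (-0.55). GAS5, a snoRNA host gene that is a classic NMD target, was close to 0 and was not called (edgeR adjusted p = 0.99). Without UPF1 siRNA replicates 1 and 2, 10 targets were higher and 5 lower. Counts are per gene, so that isoforms with a premature stop were not separated from productive ones. Splicing factors of the SR and hnRNP families, many of which regulate themselves through NMD-sensitive exons, were lower in 17 of 38 cases (44.7%, beside 19% of all genes) and higher in 3 (7.89%, beside 22.9%), with SRSF9 at 0.84 ± 0.072, SRSF7 at -0.47 ± 0.068 and HNRNPUL1 at -0.55 ± 0.07. Their median of -0.23 was -0.11 after correction for GC content and -0.27 without UPF1 siRNA replicates 1 and 2. In vehicle 5 of 38 were lower (13.2%, beside 15.4% of all genes there) and 1 higher (2.63%, beside 14.9%). The median there was -0.12.

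**Figure D2:**
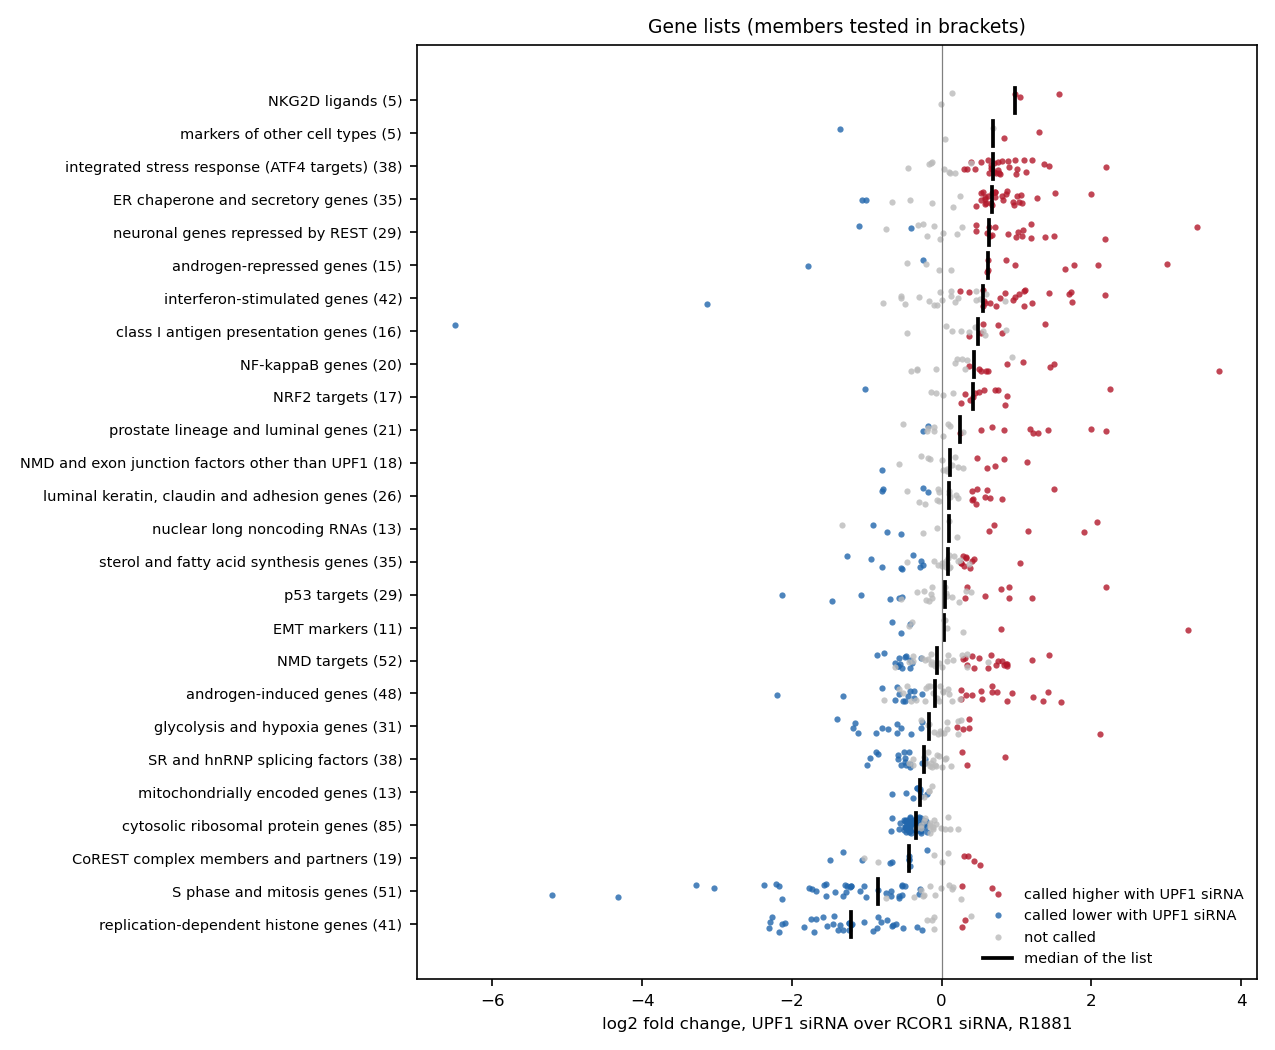
Log2 fold changes, UPF1 siRNA over RCOR1 siRNA in R1881, of the tested members of 26 gene lists, with called members in colour and the median of each list as a black bar. Stress, ER, neuronal and interferon-stimulated genes lie mostly right of 0, and histone, S phase and mitosis, and ribosomal protein genes lie mostly left of it.

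Genes of cell division were lower with UPF1 siRNA. Of 51 S phase and mitosis genes, 37 were lower (72.5%, beside 19% of all genes) and 2 higher, with a median of -0.85. The spindle factor TPX2 had 12.7, 11.6 and 11 CPM with UPF1 siRNA, against 27.4, 28.9 and 28.6 CPM with RCOR1 siRNA, a difference of -1.27 ± 0.093 on the log2 scale (edgeR adjusted p = 0.00025). RRM2, the regulated subunit of ribonucleotide reductase, had 13.8, 14.6 and 14.7 CPM with UPF1 siRNA, against 34.4, 31.4 and 33.5 CPM with RCOR1 siRNA, a log2 fold change of -1.21 ± 0.084. The UPF1 siRNA libraries lay together below the RCOR1 siRNA libraries in both genes. The checkpoint kinase BUB1B differed by -1.43 ± 0.14, whereas the replication helicase subunit MCM7 (0.68 ± 0.11) and the constitutive subunit RRM1 (0.27 ± 0.072) were higher. Neither was called without UPF1 siRNA replicates 1 and 2 (edgeR adjusted p = 0.076 and 0.26), and RRM1 was not called with DESeq2 (0.25) either. Leaving out any single library other than UPF1 siRNA replicate 3 also ended the call of RRM1. Against control, TPX2 stood at -1.55 with UPF1 siRNA and at -0.28 with RCOR1 siRNA. In vehicle 34 of 53 members were lower (64.2%, beside 15.4% of all genes there) and none higher (median -0.74). Without UPF1 siRNA replicates 1 and 2 the median in R1881 was -0.97.

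Replication-dependent histone genes are transcribed in S phase and end in a stem-loop instead of a poly(A) tail. They were lower in 34 of 41 cases (82.9%, beside 19% of all genes) and higher in 2 (4.88%, beside 22.9%). Their median was -1.21. UPF1 is known to take part in the decay of their transcripts when replication stops. H3C2 had 6.93, 7.33 and 5.57 CPM with UPF1 siRNA, against 28.2, 37.3 and 32 CPM with RCOR1 siRNA, a difference of -2.29 ± 0.15 on the log2 scale (edgeR adjusted p = 0.00024). H2AC12 (chromosome 6, 27147129 to 27147515) had 1.84, 1.55 and 2.13 CPM with UPF1 siRNA, against 8.41, 7.36 and 7.64 CPM with RCOR1 siRNA, a log2 fold change of -2.09 ± 0.16. The groups were separated in both, and against control H3C2 stood at -2.4 with UPF1 siRNA and at -0.1 with RCOR1 siRNA. The linker histone H1-4 differed by -0.85 ± 0.067, and H2BC21 (0.32) and H2AC6 (0.28), which also make polyadenylated transcripts, were higher, but neither was called without UPF1 siRNA replicate 1 or replicate 2, and the call of H2AC6 was also lost with DESeq2 (0.26) and on leaving out any RCOR1 siRNA library. Reads shared between these near-identical genes are of uncertain assignment. In vehicle 38 of 42 were lower (90.5%, beside 15.4% of all genes there) and none higher (median -1.15). Without UPF1 siRNA replicates 1 and 2 the median in R1881 was -1.22.

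Ribosomal protein genes, mitochondrially encoded genes, and glycolysis and hypoxia genes were more often lower than higher with UPF1 siRNA. Cytosolic ribosomal protein genes were lower in 67 of 85 cases (78.8%, beside 19% of all genes) and higher in none, at a median of -0.34 and a range of -0.68 to 0.22. RPS3A had 486, 493 and 534 CPM with UPF1 siRNA, against 792, 776 and 821 CPM with RCOR1 siRNA, a difference of -0.66 ± 0.06 on the log2 scale (edgeR adjusted p = 0.00046). In vehicle 80 of 85 were lower (94.1%, beside 15.4% of all genes there), with a median of -0.57. Mitochondrially encoded genes were lower in 9 of 13 cases (69.2%, beside 19% of all genes), with MT-CO2, a cytochrome oxidase subunit, at -0.47 ± 0.079. Their median was -0.28, and -0.3 without UPF1 siRNA replicates 1 and 2. After correction for GC content and length 7 were lower with a median of -0.14, and for adenine content 6 were lower and 1 higher. In vehicle 3 of the 13 were lower (23.1%, beside 15.4% of all genes there), with a median of -0.26. Among glycolysis and hypoxia genes in R1881, 13 of 31 were lower (41.9%, beside 19% of all genes). Another 5 were higher (16.1%, beside 22.9%) and 13 were not called. Their median was -0.17, and -0.35 without UPF1 siRNA replicates 1 and 2. Lactate dehydrogenase LDHA had 117, 117 and 106 CPM with UPF1 siRNA, against 227, 253 and 259 CPM with RCOR1 siRNA, a difference of -1.12 ± 0.079 on the log2 scale (edgeR adjusted p = 0.00024), and LDHB differed by -1.18 ± 0.11, so that both subunits of the enzyme were at less than 0.5 times the level in the RCOR1 arm. EGLN3, an oxygen-sensing hydroxylase, stood against them at 2.12 ± 0.15, with 2.14 with UPF1 siRNA and 0.04 with RCOR1 siRNA against control.

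The 15 lowest genes had adenine-rich and mostly long transcripts, and here the libraries of a group differed among themselves. The kinetochore protein gene CENPF (chromosome 1, 214603195 to 214664588) had 0.559, 0.941 and 1.56 CPM with UPF1 siRNA, against 17.4, 43.8 and 47.1 CPM with RCOR1 siRNA, a difference of -5.2 ± 0.52 on the log2 scale (edgeR adjusted p = 0.00059). ATRX, a chromatin remodeller, had 8.15, 8.47 and 24.3 CPM with UPF1 siRNA, against 101, 225 and 209 CPM with RCOR1 siRNA, a difference of -3.73 ± 0.52 on the log2 scale (edgeR adjusted p = 0.0019). Replicate 3 with UPF1 siRNA was the highest of its group in both genes and replicate 1 with RCOR1 siRNA the lowest of its group. The groups did not overlap, which was a condition for choosing these 15 genes. The others included the spindle and chromosome genes ASPM (-4.97), CENPE (-4.33), TTK (-3.27), SGO2 (-3.25) and SMC2 (-3.22), the centrosome and cilium genes CEP290 (-3.77), LRRCC1 (-3.75) and AKAP9 (-3.75), the DNA repair gene BRCA2 (-3.61), the zinc finger gene ZNF292 (-3.33), the Golgi tether GOLGB1 (-3.45) and the endosome tether EEA1 (-3.18).

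Their longest annotated transcripts had 31.9 to 41.4% adenine (median 35.7%, beside 26.0% over tested genes) and a median length of 10307 bases (3444 over tested genes), with the shortest, that of TTK, at 3725 bases. None of the 15 was called in vehicle, where their log2 fold changes ran from -1.44 to 0.06, and there replicate 1 with UPF1 siRNA was itself low: ATRX had 22.3, 198 and 287 CPM with UPF1 siRNA, against 123, 143 and 294 CPM with RCOR1 siRNA. Whether their contrast differs between R1881 and vehicle was not called for any of CENPF, ASPM and ATRX (edgeR adjusted p = 0.11, 0.1 and 0.095). All 15 were called without UPF1 siRNA replicates 1 and 2, at -4.86 to -2.26, and after a correction for adenine content, at -3.86 to -1.59. MALAT1, a nuclear long noncoding RNA, spread as widely, with 3618, 4409 and 20602 CPM with UPF1 siRNA, against 12509, 30097 and 29380 CPM with RCOR1 siRNA, and was not called (edgeR adjusted p = 0.17).

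Across all genes the siRNA difference in R1881 followed adenine content. The median log2 fold change was 0.15 over 3503 genes with less than 22% adenine, 0.04 over 3039 genes with 25 to 28%, -0.53 over 1447 genes with 31 to 34% and -1.07 over 312 genes with at least 34%. In that last class 167 genes (53.5%) were lower and 6 (1.92%) higher, whereas in vehicle 6 of 340 (1.76%) were lower and 30 (8.82%) higher, with a median of 0.03. In R1881 the median deviations of the last class from the 6-library mean were -0.84, -0.70 and 0.03 log2 CPM in UPF1 siRNA replicates 1, 2 and 3, against 0.19, 0.62 and 0.69 with RCOR1 siRNA. In vehicle they were -0.48, 0.19 and 0.40 with UPF1 siRNA, against -0.20, -0.15 and 0.41 with RCOR1 siRNA, so that replicates of 1 group spread as widely as groups differed. The part of library composition in the differences of adenine-rich genes was not tested. With a correction for adenine content 7048 genes were called, 26.3% higher and 24.2% lower, and the stress, ER, interferon, histone and cell division lists had medians of 0.57, 0.64, 0.49, -1.28 and -0.87.

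**Figure D3:**
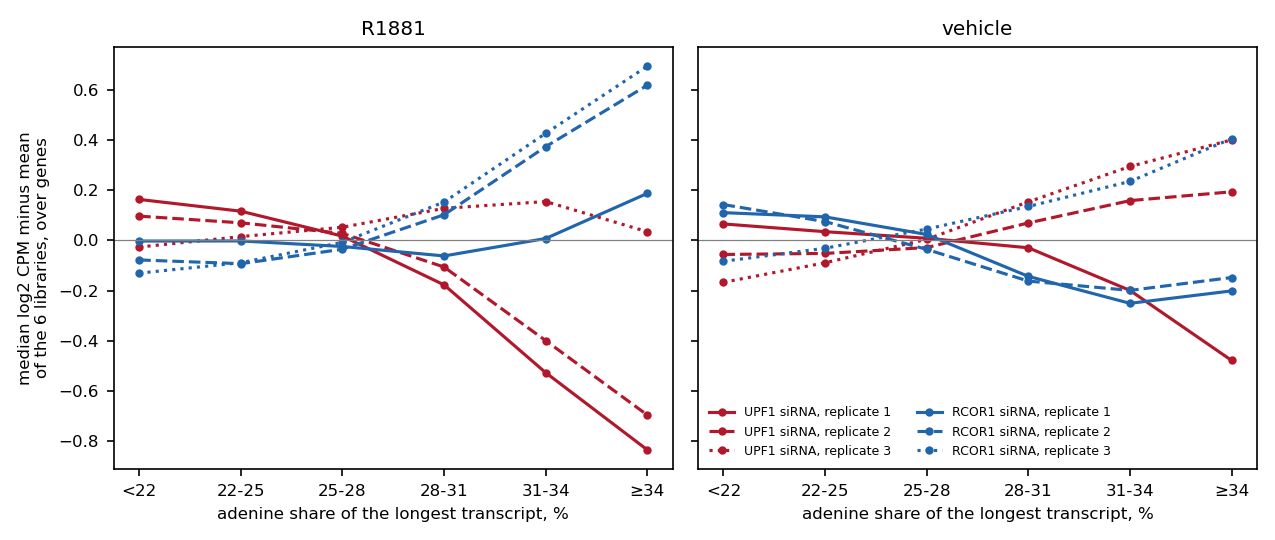
Median deviation of each library from the mean of its 6 libraries, in log2 CPM (y axis), over genes grouped by the adenine share of their longest transcript (x axis), for R1881 (left) and vehicle (right); red lines are UPF1 siRNA and blue lines RCOR1 siRNA. In R1881 UPF1 siRNA replicates 1 and 2 lie below the other 4 libraries above 28% adenine, at -0.84 and -0.70 in the last class. Replicate 3 lies slightly above the RCOR1 siRNA libraries from 22 to 28% and among them from 28 to 34%. In vehicle replicates of both groups cross.

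Androgen-induced genes showed no common direction. Of 48 tested, 15 were higher (31.2%, beside 22.9% of all genes) and 13 lower (27.1%, beside 19%). The median was -0.09, and -0.1 without UPF1 siRNA replicates 1 and 2. The cold-activated channel TRPM8 had 121, 109.9 and 117 CPM with UPF1 siRNA, against 44.7, 43.6 and 41.8 CPM with RCOR1 siRNA, a difference of 1.42 ± 0.074 on the log2 scale (edgeR adjusted p = 0.00013). KLK3, which encodes prostate-specific antigen, had 3453, 3368 and 3007 CPM with UPF1 siRNA, against 2719.7, 2238 and 2489 CPM with RCOR1 siRNA, a difference of 0.4 ± 0.09 on the log2 scale (edgeR adjusted p = 0.012), and was not called without UPF1 siRNA replicate 1 (0.33), replicate 2 (0.36) or both (0.21). Both were higher in every UPF1 siRNA library. The protease gene TMPRSS2 was higher (0.26 ± 0.063), but was not called with DESeq2 (0.24), without UPF1 siRNA replicate 1 (0.2), 2 (0.23) or both (0.11), or without RCOR1 siRNA replicate 2 (0.23) or 3 (0.26). The co-chaperone FKBP5 was lower (-0.37 ± 0.073), but was not called after correction for GC content (-0.20) or GC content and length (-0.03), or without UPF1 siRNA replicates 1 and 2 (-0.4). The coagulation factor F5 (1.6 ± 0.14) was higher with UPF1 siRNA and the metastasis suppressor NDRG1 (-0.8 ± 0.091), the TGF-beta antagonist PMEPA1 (-0.44 ± 0.063) and the lipid phosphatase PLPP1 (-0.62 ± 0.066) were lower. The metalloreductase STEAP4 (1.22 ± 0.15) and the plasma glycoprotein ORM1 (1.35 ± 0.13) differed through the RCOR1 arm, with -1.1 and -1.17 against control there and 0.1 and 0.17 with UPF1 siRNA.

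Androgen-repressed genes were more often higher with UPF1 siRNA, with 9 of 15 higher (60%, beside 22.9% of all genes) and 2 lower (13.3%, beside 19%). The median was 0.61 with and without UPF1 siRNA replicates 1 and 2. The list name did not hold for every member here. GRIN3A, among the higher ones, had means of 148 CPM in R1881 and 39 CPM in vehicle with UPF1 siRNA. With RCOR1 siRNA its means were 97.7 and 34.8 CPM. The higher members OPRK1, UGT2B17 and IL1RN had lower means in R1881 than in vehicle in both arms. The kappa opioid receptor OPRK1 had 17.4, 18.4 and 19.6 CPM with UPF1 siRNA, against 5.58, 6.09 and 5.91 CPM with RCOR1 siRNA, a difference of 1.65 ± 0.1 on the log2 scale (edgeR adjusted p = 0.00019). The androgen-inactivating enzyme UGT2B17 had 8.38, 8.67 and 9.01 CPM with UPF1 siRNA, against 1.63, 2.29 and 2.21 CPM with RCOR1 siRNA, a log2 fold change of 2.09 ± 0.16. The UPF1 siRNA libraries lay above the RCOR1 siRNA libraries in both, as in the interleukin-1 receptor antagonist IL1RN (1.77 ± 0.17). UGT2B17 has near-identical relatives, so its read assignment is uncertain. The chemokine scavenger ACKR3 was lower, with 6.65, 5.92 and 5.9 CPM with UPF1 siRNA, against 21.6, 21.2 and 20.6 CPM with RCOR1 siRNA, and stood at -0.18 with UPF1 siRNA and at 1.62 with RCOR1 siRNA against control.

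Prostate lineage genes were higher in 10 of 21 cases (47.6%, beside 22.9% of all genes) and lower in 2 (9.52%, beside 19%). Their median was 0.24, and 0.26 without UPF1 siRNA replicates 1 and 2. After correction for GC content 11 were higher and 5 lower, and for adenine content 11 and 6. The higher ones included prostatic acid phosphatase ACP3, with 524, 515 and 513 CPM with UPF1 siRNA, against 209, 208 and 217 CPM with RCOR1 siRNA (1.29 ± 0.053, edgeR adjusted p = 6.2e-05), and the calcium-binding protein S100P (1.18 ± 0.14). The lineage factors HOXB13 (-0.1) and FOXA1 (0.11) were not called. Of 26 luminal keratin, claudin and adhesion genes 10 were higher (38.5%, beside 22.9% of all genes), such as the claudins CLDN8 (1.5 ± 0.16) and CLDN7 (0.81 ± 0.11). Another 4 were lower (15.4%, beside 19%), such as E-cadherin CDH1 (-0.24 ± 0.06), which was not called without UPF1 siRNA replicate 2 (-0.27) or with DESeq2 (-0.26). The median of this list was 0.1 with and without UPF1 siRNA replicates 1 and 2. Of 11 tested markers of epithelial-mesenchymal transition (EMT), 2 were higher (18.2%, beside 22.9% of all genes), namely NAV3 and the integrin ITGA5 (0.79), and 3 were lower (27.3%, beside 19%). Of the lower ones, fibronectin FN1 (-0.66) was not called after correction for GC content and length (-0.21), and thrombospondin THBS1 (-0.55) was not called without UPF1 siRNA replicate 2 (-0.52) or RCOR1 siRNA replicate 2 (-0.43). The repressor SNAI2 (-0.42, edgeR adjusted p = 0.044) was not called with DESeq2 (-0.44), and leaving out any single library other than UPF1 siRNA replicate 3 ended its call. Sterol and fatty acid synthesis genes also stood near the shares of all genes, with 10 of 35 higher (28.6%, beside 22.9%), such as the mevalonate enzyme MVD (1.05 ± 0.12), and 9 lower (25.7%, beside 19%), such as the desaturase FADS2 (-0.79 ± 0.1), or 2 and 6 without UPF1 siRNA replicates 1 and 2. Of 13 nuclear long noncoding RNAs, 5 were higher (38.5%, beside 22.9%), 3 lower (23.1%, beside 19%) and 5 not called, with a median of 0.09. Among the higher ones, DRAIC, which is androgen-repressed in prostate cells, had 40.2, 37.3 and 36.5 CPM with UPF1 siRNA, against 9.47, 8.29 and 9.22 CPM with RCOR1 siRNA (2.08 ± 0.096, edgeR adjusted p = 6.8e-05), and LINC00511 differed by 1.9 ± 0.3. The lower ones were SCHLAP1 (-0.92 ± 0.19), PCAT1 (-0.73 ± 0.12) and PVT1 (-0.54 ± 0.13), and each lost its call in some alternative fits. Markers of other cell types moved singly: the endothelial gene VWF was higher (1.3 ± 0.12), with the endothelial marker CDH5 at 0 in all libraries, the basal keratin KRT14 was higher (0.84 ± 0.21; not called without either of UPF1 siRNA replicates 1 and 2 or RCOR1 siRNA replicates 2 and 3), with KRT5 and TP63 at 0, and the smooth muscle actin ACTA2 was lower (-1.36 ± 0.11), with DES at 0.

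The same siRNA contrast in vehicle, in 6 libraries that share none with the R1881 comparison, gave much of the same order. In vehicle 4420 of 14563 genes were called (30.4%), 2172 higher (14.9%) and 2248 lower (15.4%). The count was 2543 without UPF1 siRNA replicate 2 in vehicle, 2723 without RCOR1 siRNA replicate 1 and 2939 without RCOR1 siRNA replicate 2. Of 3159 genes higher in R1881 and tested in vehicle, 1401 (44.3%) were also higher in vehicle, which is 64.5% of the genes higher there. Of 2630 lower genes, 1284 (48.8%) were also lower in vehicle, 57.1% of the genes lower there. Over 13786 genes tested in both, Pearson's r between the log2 fold changes was 0.547, and it was 0.769 over 5991 genes with a GC content of 50% or more and 0.525 over 2208 genes below 40%. These correlations run across genes, which are not independent replicates, and are descriptive. Opposite directions were called for 23 genes, KLK2, KLK3 and TMPRSS2 among them.

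**Figure D4:**
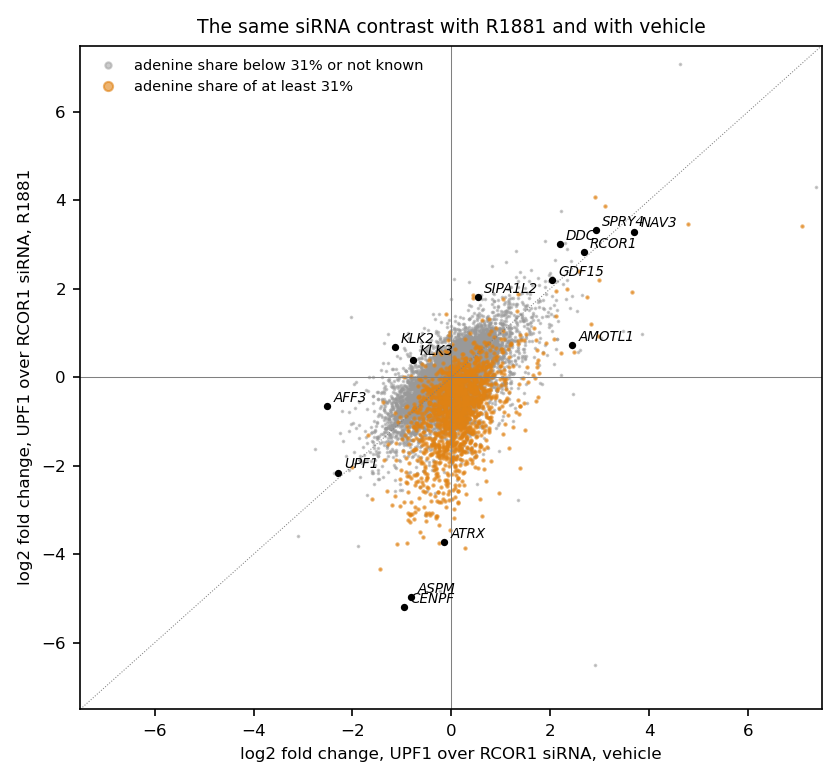
Log2 fold changes, UPF1 siRNA over RCOR1 siRNA, of 13786 genes in vehicle (x axis) and in R1881 (y axis), with genes of at least 31% adenine in orange and selected genes in black. Many genes lie along the dotted diagonal, CENPF, ASPM and CENPE lie below -4 in R1881 and at -0.95, -0.8 and -1.44 in vehicle, and KLK2 and KLK3 lie on opposite sides of 0 in the 2 treatments.

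Whether the contrast itself differed between R1881 and vehicle was tested as an interaction over 12 libraries. Of 15076 genes, 237 (1.57%) were called, 0.769% with a higher log2 fold change in R1881 and 0.803% with a lower one. Of these calls 48.9% were higher in R1881, and 61.2% were with library size alone as scaling. Leaving out replicate 1, 2 or 3 gave 54, 33 and 2481 calls for UPF1 siRNA with R1881, 267, 41 and 41 for RCOR1 siRNA with R1881, 938, 46 and 90 for UPF1 siRNA with vehicle, and 37, 48 and 1010 for RCOR1 siRNA with vehicle.

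Kallikreins were among these genes. KLK2 (chromosome 19, 50861568 to 50880567), a protease that activates prostate-specific antigen, had 471, 452 and 403 CPM with UPF1 siRNA, against 300, 251 and 280.5 CPM with RCOR1 siRNA in R1881. In vehicle it had 10.2, 11 and 8.78 CPM with UPF1 siRNA, against 22.6, 22.6 and 21 CPM with RCOR1 siRNA. Its log2 fold changes were thus 0.67 ± 0.091 in R1881 and -1.14 ± 0.13 in vehicle, with libraries separated both times, and the difference was 1.77 ± 0.15 (edgeR adjusted p = 0.00049). KLK3 had 251, 234 and 235 CPM with UPF1 siRNA, against 404, 437 and 387 CPM with RCOR1 siRNA in vehicle, and its contrast differed by 1.12 ± 0.13 (edgeR adjusted p = 0.0032). In R1881 KLK2 stood at 0.18 with UPF1 siRNA and at -0.47 with RCOR1 siRNA against control, and KLK3 at -0.08 and -0.47. KLK2 was not called without UPF1 siRNA replicates 1 and 2 (edgeR adjusted p = 0.055). Reads shared between the closely related KLK2 and KLK3 are of uncertain assignment.

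Further genes differed by treatment in size, and a few in direction. AFF3, a subunit of an elongation complex, had 94.8, 92.1 and 94.6 CPM with UPF1 siRNA, against 138, 154 and 152 CPM with RCOR1 siRNA in R1881. In vehicle it had 4.77, 5.58 and 5.88 CPM with UPF1 siRNA, against 29, 31.9 and 31.6 CPM with RCOR1 siRNA, so that the gap between the arms was far wider there (-2.51 ± 0.13, beside -0.66 ± 0.07 in R1881; difference 1.8 ± 0.12, edgeR adjusted p = 8e-05). AMOTL1, a junction protein of the angiomotin family, had 20.1, 18 and 17.7 CPM with UPF1 siRNA, against 10.7, 12.9 and 10.2 CPM with RCOR1 siRNA in R1881. In vehicle it had 98, 87.8 and 83.6 CPM with UPF1 siRNA, against 14.5, 16.8 and 18.3 CPM with RCOR1 siRNA, with a difference of -1.77 ± 0.16 (edgeR adjusted p = 0.00093). The calcium release channel ITPR1 was lower in R1881 (-0.89 ± 0.071) and at -0.02 ± 0.095 in vehicle (difference -0.93 ± 0.098, edgeR adjusted p = 0.0018). The Rap GTPase regulator SIPA1L2 was higher in both, at 1.82 in R1881 and 0.54 in vehicle. The transcription factor MAF (-0.52 and -1.4), the potassium channel KCNMA1 (-0.36 and -1.43) and the ephrin EFNA5 (-0.69 and -1.37) were lower in both, less so in R1881; KCNMA1 in R1881 turned to 0.37 after a correction for GC content and length, and with that correction AFF3 in R1881 was at -0.28 and was not called. AMOTL1, KCNMA1 and REXO5 were not called in R1881 without UPF1 siRNA replicates 1 and 2 (0.59, -0.43 and 0.53). The exonuclease REXO5 (0.66 and -0.95) and the adrenergic receptor ADRA2A (0.78 and -0.45) were higher in R1881 and lower in vehicle.

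**Figure D5:**
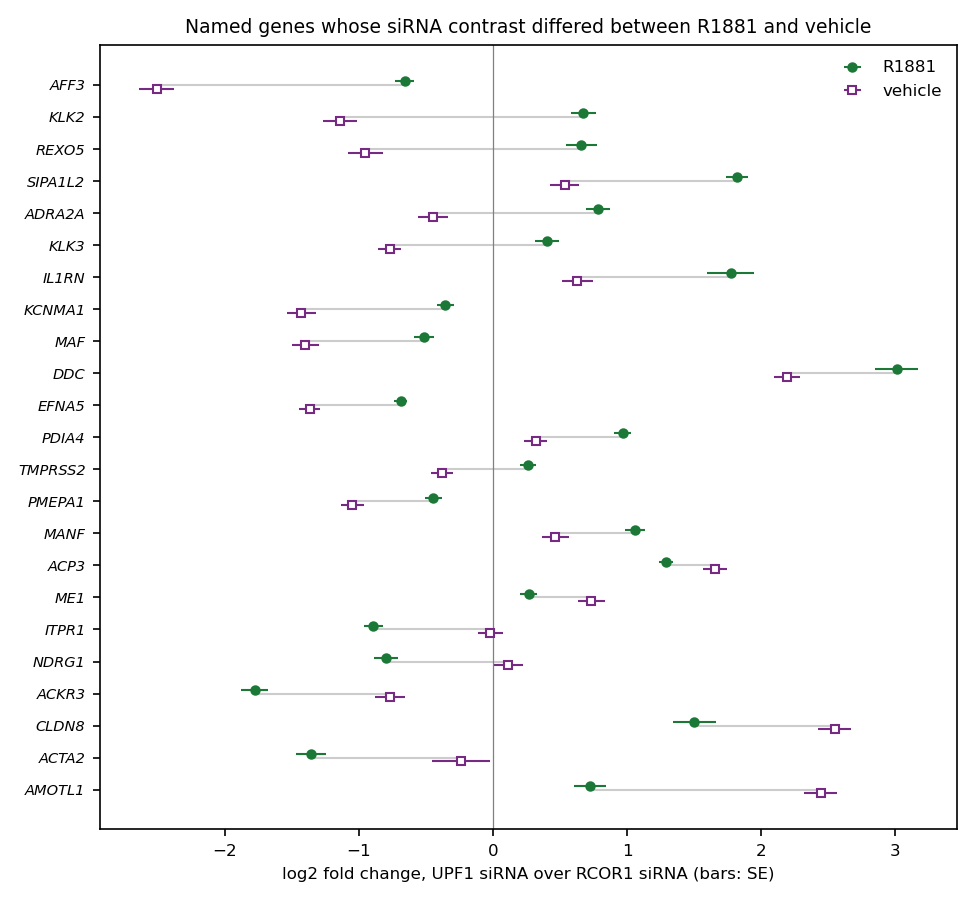
Log2 fold changes, UPF1 siRNA over RCOR1 siRNA, with SE, of 23 genes whose contrast differed between treatments, in R1881 (filled circles) and vehicle (open squares). KLK2, KLK3, TMPRSS2, REXO5 and ADRA2A lie right of 0 in R1881 and left of 0 in vehicle.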

How the data were processed

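The authors deposited unnormalized read counts for 60649 genes and 18 libraries. Per the submitters' processing notes, tools named were bcl2fastq 2.20, STAR 2.7.9a and featureCounts of Subread 1.6.4, with genome build GRCh38.p7; the sources used here give neither the annotation release nor the strand setting, so antisense and overlapping genes may share reads. Columns were assigned by title. Totals lay between 10299607 and 17338235 counts, and all 18 libraries were kept, of which control siRNA libraries served only for side-by-side values.

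Counts were tested in R 4.3.3 with edgeR 4.0.16 (filterByExpr by group, TMM scaling, glmQLFit and glmQLFTest, Benjamini-Hochberg adjusted p below 0.05). The R1881 and vehicle comparisons were fitted separately on 6 libraries each, the interaction on 12, and values against control on the 9 R1881 libraries. The SE was derived from the log2 fold change and its F statistic. The fits were tested on simulated data. Alternatives used DESeq2 1.42.0, limma 3.58.1 (voom) and offsets from a loess on GC, length or adenine content of each gene's longest GENCODE 29 transcript, with 96.3% of identifiers matched and content known for 99.1% of tested genes. Positions are from that release; promoter windows are RefSeq's.

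The comparison and the 26 gene lists were chosen with earlier results of these data known, so counts are descriptive and no list was tested as a set. Genes named were the targets; the 15 highest and 15 lowest called genes with at least 5 CPM and no overlap between groups; up to 5 called members per list and direction by p; and 10 called genes with the smallest p of the interaction. Others were chosen after their values were seen, and a few genes are not reported here. Replicates carry no numbers in the labels and are numbered in accession order, so no pairing was made. Errors cover counting and the spread between libraries.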

Additional observations from a re-analysis of the deposited data

Results flagged for a closer look

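For 24 named genes, the contrast of UPF1 siRNA with RCOR1 siRNA in R1881 differed from the same contrast in vehicle by edgeR's interaction test (adjusted p below 0.05). The differences that follow are log2 fold changes in R1881 minus those in vehicle, each from 3 libraries per group. The contrast was higher in R1881 for AFF3 (1.8), KLK2 (1.77), REXO5 (1.56), SIPA1L2 (1.23), ADRA2A (1.18), KLK3 (1.12), IL1RN (1.09), KCNMA1 (1.02), MAF (0.84), DDC (0.77), EFNA5 (0.63), PDIA4 (0.60), TMPRSS2 (0.59), PMEPA1 (0.55) and MANF (0.54). It was lower in R1881 for AMOTL1 (-1.77), ACTA2 (-1.17), CLDN8 (-1.10), ACKR3 (-1.06), NDRG1 (-0.96), ITPR1 (-0.93), ME1 (-0.52) and ACP3 (-0.42). TMPRSS2, a gene that androgen induces, was chosen after its values were seen.

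HLA-B had the widest difference, a fitted value of -9.46, and the least even libraries. In R1881 it had 0.112, 0 and 0 CPM with UPF1 siRNA, against 5.58, 5.33 and 3.47 CPM with RCOR1 siRNA, and in vehicle it had 8.06, 5.25 and 0 CPM with UPF1 siRNA, against 0.0676, 1.65 and 0 CPM with RCOR1 siRNA. A group with 0 counts in 2 libraries gives no firm fold change, so the fitted value is no measure of size.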

How the results depend on the processing

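The 5901 calls in R1881 stayed within 1.5 times under DESeq2 (5119), DESeq2 size factors, limma-voom, library size alone, other filters on low counts, all 18 libraries in 1 fit and corrections for GC, GC with length, and adenine content. Stricter thresholds gave 3196 at adjusted p below 0.01, 1449 at adjusted p below 0.05 with at least a 2-fold difference, and 1437 with glmTreat against 0.5. Leaving out each replicate gave 3658 to 7108, and leaving out UPF1 siRNA replicates 1 and 2 together, where the lone library is assumed to vary like the other group, gave 2174. The 4420 calls in vehicle ranged from 2543 to 5098 over the 6 fits without a replicate. The 237 interaction calls became 863 with DESeq2, 1932 without a filter, 835 with GC correction and 811 with adenine correction, and ranged from 33 to 2481 without a replicate; the cause was not tested.

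Of the 223 genes named or looked at, those called in R1881 turned sign only after corrections for base content, to values not called by edgeR: with GC and length HDAC2 0.23, MDM2 0.16, HNRNPD 0.16, KCNMA1 0.37 and RCOR3 0.17, and with GC alone HNRNPD 0.12 and RCOR3 0.16. Calls were lost for 62 of them without UPF1 siRNA replicates 1 and 2 together and for 17 with DESeq2. Corrections by GC with length and by adenine, and the GC correction in vehicle and in the interaction, were added after seeing the data. No paired analysis was possible because the labels give no replicate numbers shared between groups: library names run on consecutively through the siRNAs, and whether neighbours share a culture or day is not given in the sources used here. Depth limits most the genes with the fewest counts, such as CCL20 and HLA-B.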
